A study of Mus musculus with 20 samples.

Results

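In the cerebellum of 2-month-old 304Q/304Q mice, Atxn3 mRNA averaged 191.5 ± 30.8 normalized counts (SD, n = 5) against 277.9 ± 42.1 in WT/WT mice of that age, a log2 fold change of -0.54, whereas the other 9 genes of the polyglutamine disease and ataxin group lay between -0.12 and 0.14. That difference did not pass the adjusted p-value of edgeR's quasi-likelihood test over all genes (adjusted p = 0.0916), and it passed with DESeq2 (adjusted p = 0.00738). At 12 months the difference of Atxn3 was -0.13 (adjusted p = 0.51 by edgeR). Its level in WT/WT mice was itself lower at 12 than at 2 months by 0.32 on the log2 scale, which did not pass (adjusted p = 0.0675 by edgeR). With the GC and length trends of the libraries removed, that fold change with age was -0.15. The group described here holds 10 of the 29200 genes of the count table, chosen by symbol: the repeat-carrying gene Atxn3, the polyglutamine disease genes Atxn1, Atxn2, Atxn7, Atn1, Htt and Tbp, the paralogs Atxn1l and Atxn2l, and Atxn10. Every one of the 10 was found by its Ensembl ID, and all 10 were among the 12153 genes tested, whose mean count over the libraries was 50 or more.

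The mice were male C57BL6/N animals, with 5 mice for each of the WT/WT and 304Q/304Q genotypes at the age of 2 months and as many at 12 months, and each of the 20 libraries was made from polyA-enriched cerebellar RNA of 1 mouse. The 304Q/304Q mice carry, on both alleles of the murine Atxn3 locus, an expanded repeat of 304 glutamine codons made with Zn-finger nucleases, and the gene keeps its endogenous regulatory elements. They descend from 1 founder line, so that the repeat cannot be told apart from any other change fixed in that line. In the sample labels the normal alleles are given as ataxin-2 and the expansion as pure CAG, but the study's methods give Atxn3 and a repeat of mixed CAA and CAG codons, and the methods were followed. The library totals ran from 11385380 to 27636687 counts, and the highest was replicate 1 of the 2-month 304Q/304Q mice. For the 10 genes, normalized counts are counts scaled by edgeR's TMM factors to the mean library size.

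Ataxin-3 is a deubiquitinating enzyme with a catalytic Josephin domain, and its glutamine tract lies towards the end of the protein. Expansion of a CAG repeat in its coding sequence causes Machado-Joseph disease, in which cerebellar and brainstem neurons degenerate. The other disease genes of the group share with it a repeat disease and little else in function. Ataxin-1 is a transcriptional repressor that works with Capicua, ataxin-2 an RNA-binding protein and ataxin-7 a subunit of the SAGA chromatin complex. Atrophin-1 is a corepressor, huntingtin a scaffold of vesicle transport and Tbp the TATA-binding protein. The paralogs Atxn1l and Atxn2l have no polyglutamine disease of their own. Ataxin-10 is the exception among the disease genes, since its repeat lies in an intron and codes for no glutamine.

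In the mouse these genes carry short glutamine tracts. The longest uninterrupted run of CAG and CAA codons was read from the coding transcripts of GENCODE M21 on GRCm38. It held 13 codons in Tbp (9 CAG and 4 CAA), 7 in Htt, 6 in Atxn3 and 5 in Atxn7, but only 3 in Atxn1, Atxn2 and Atn1, 2 in Atxn1l and Atxn2l, and 1 in Atxn10. The 4 longest and the short tract of Atn1 are shown because they give the sequence that the knock-in replaced and what its relatives have in the same role. The run is in capitals and the 20 bases on each side are in lower case, 5′ to 3′ on the coding strand.
Atxn3: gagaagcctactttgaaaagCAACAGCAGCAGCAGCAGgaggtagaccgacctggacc
Tbp: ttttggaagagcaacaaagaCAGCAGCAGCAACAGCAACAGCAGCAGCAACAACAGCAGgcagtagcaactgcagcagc
Htt: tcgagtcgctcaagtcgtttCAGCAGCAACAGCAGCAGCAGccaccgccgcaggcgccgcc
Atxn7: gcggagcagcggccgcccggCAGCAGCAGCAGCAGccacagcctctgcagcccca
Atn1: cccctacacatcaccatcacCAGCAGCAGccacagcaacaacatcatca
The Atxn3 run lies at chr12:101926563-101926580 on the minus strand and forms codons 292 to 297. It lies near the start of exon 10 of 11, so that the lower-case bases before it reach back into the exon before. The Tbp run is at chr17:15504391-15504429 (plus strand, exon 4 of 9), the Htt run at chr5:34761958-34761978 (plus strand, exon 1 of 67), the Atxn7 run at chr14:14013156-14013170 (plus strand, exon 2 of 13) and the Atn1 run at chr6:124746820-124746828 (minus strand, exon 5 of 10). Of the 3 complete coding transcripts of Atxn3 in that annotation, 1 holds this run. The mouse reference has 6 of these codons where the 304Q allele has 304, so reads that lie inside the inserted repeat have no full match in the reference. The counts are totals per gene with no values per exon, and the part that such reads play in the Atxn3 counts was not tested. Nor can the Atxn3 total check the genotype labels, because the knock-in adds sequence and removes no exon.

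In the 5 WT/WT mice of 2 months, Atxn3 stood at 312, 332.1, 241, 264.6 and 239.9 normalized counts. In the 304Q/304Q mice of that age it stood at 158.2, 189.9, 174.9, 193.9 and 240.6. Of these 304Q/304Q mice, 4 lay below every WT/WT mouse, and the fifth, replicate 5, overlapped the WT/WT range by less than 1 count at its lower end. At 12 months, the WT/WT mice held 233.9, 208.1, 234.1, 201.6 and 233.2 normalized counts. The 304Q/304Q mice of 12 months held 188.4, 213.8, 213.8, 220.2 and 180.7. The 12-month ranges overlapped, with 2 of the 304Q/304Q mice below all WT/WT mice. The WT/WT mice of 2 months stood highest of the 4 groups, and their values lay above those of all 5 WT/WT mice of 12 months. These values rest on 168 to 317 reads per library, so that Atxn3 is among the thinly counted genes of the group.

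**Figure D1:**
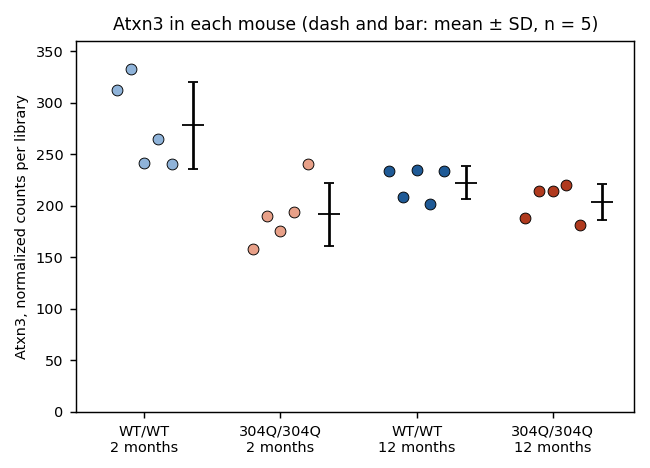
Normalized counts of Atxn3 (vertical axis, from 0) in each of the 20 mice by genotype and age, with the mean ± SD of the 5 mice beside each group. The WT/WT mice of 2 months, between 239.9 and 332.1, stand above the other groups except for 1 304Q/304Q mouse at 240.6.

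For the question of whether the knock-in changes the mRNA of its own gene, the genotypes were compared at each age. At 2 months the log2 fold change of Atxn3 in 304Q/304Q mice was -0.54 (SE 0.11, 95% confidence interval -0.78 to -0.30), that is 0.688 of the WT/WT level. Its unadjusted p of 9.05e-05 ranked 12th of all genes tested by edgeR. The adjusted p of 0.0916 stood above the threshold of 0.05, which 6 genes met, 0.0494% of those tested. With the added limit of 0.5 on the size of the log2 fold change, 1 gene was called, or 0.00823%. A 2-sided exact permutation test on the log2 CPM of Atxn3 alone, over all 252 ways to divide the 10 mice, gave p = 0.0159 (0.0317 after Benjamini-Hochberg adjustment over the 4 such tests). The call turned on the method: besides DESeq2, edgeR with 3 surrogate variables (adjusted p = 0.019), DESeq2 with these variables (adjusted p = 0.00224) and edgeR corrected for trends in GC content and length (adjusted p = 0.0267) put Atxn3 below the threshold, with fold changes between -0.54 and -0.51. Without replicate 5 of the 2-month 304Q/304Q mice, edgeR gave -0.63 (adjusted p = 0.0195). The other 6 settings did not pass, with an adjusted p of up to 0.402 by edgeR on only the groups compared. Nor did the other 19 edgeR fits with 1 library left out, where the adjusted p reached 0.4225.

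At 12 months the log2 fold change of Atxn3 by genotype was -0.13 (95% confidence interval -0.37 to 0.11), with an adjusted p of 0.51 by edgeR and an exact permutation p of 0.119. The interval therefore still holds decreases of up to 0.37. The effects at the 2 ages differed by 0.41 on the log2 scale (95% confidence interval 0.074 to 0.75), and this interaction did not pass in edgeR's test (unadjusted p = 0.019, adjusted p = 0.217). It cannot be said from these data that the difference in Atxn3 was larger at 2 than at 12 months. With the GC and length trends removed, the 12-month fold change was -0.28 (adjusted p = 0.0721 by edgeR) and the interaction 0.23 (adjusted p = 0.481).

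In the comparison of ages, Atxn3 in WT/WT mice was at 222.2 ± 16.0 normalized counts at 12 months. This gave a log2 fold change of -0.32 against 2 months (95% confidence interval -0.56 to -0.086), with adjusted p = 0.0675 by edgeR. All 5 values of 12 months lay below all 5 of 2 months, a separation that 6.57% of the genes tested showed in one direction or the other. The exact permutation test gave p = 0.00794, the smallest that 5 against 5 mice allow (0.0317 adjusted). In 304Q/304Q mice the log2 fold change with age was 0.09 (95% confidence interval -0.15 to 0.33, adjusted p = 0.759 by edgeR, exact permutation p = 0.397). The comparison of genotypes at 2 months and that of ages in WT/WT mice share the same 5 young WT/WT mice, so that a high value in those libraries enters both.

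Atxn3 has a GC content of 40.6%, read for each gene from its longest annotated transcript, which is lower than that of all but 7.8% of the genes tested. The libraries differed in how genes of low and high GC were represented. That trend, given as the log2 difference between the 5% of genes with the highest and the 5% with the lowest GC content relative to the mean library, was -0.46, -0.32 and -0.33 in replicates 1 to 3 of the young WT/WT mice and 0.18 in each of replicates 4 and 5. Among the WT/WT mice of 12 months it was -0.20 in replicate 1 and 0.31 to 0.48 in the others. In the 304Q/304Q mice it lay between -0.34 and 0.12 at 2 months and between -0.18 and 0.15 at 12 months. The young 304Q/304Q mouse with the most Atxn3, replicate 5, was also the one with the lowest trend of its group. After removal of the GC and length trends, the fold change by genotype at 2 months was -0.51, close to that without the removal. The fold change with age in WT/WT mice, however, was -0.15 (adjusted p = 0.401 by edgeR), and with 3 surrogate variables it was -0.17 (adjusted p = 0.487).

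**Figure D2:**
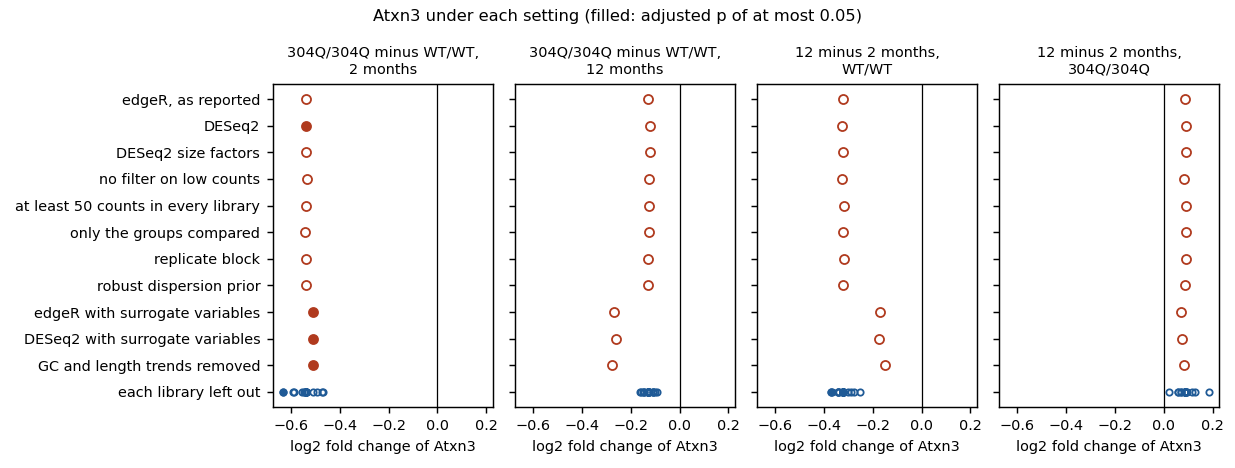
Log2 fold change of Atxn3 (horizontal axis) in 4 comparisons under edgeR as reported, 10 other settings and each of the 20 libraries left out in turn, with filled points where the adjusted p was at most 0.05. The genotype difference at 2 months stays between -0.63 and -0.47, whereas the difference with age in WT/WT mice lies between -0.37 and -0.15.

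None of the 10 genes passed the adjusted p in any of the 5 comparisons by edgeR's quasi-likelihood test. At an unadjusted p under 0.05 there was 1 gene for the genotype at 2 months (Atxn3), and there were 3 for the genotype at 12 months, 3 for the age in WT/WT mice, 1 for the age in 304Q/304Q mice and 2 for the interaction. Of all genes tested, 5.55%, 27.3%, 27.5%, 19.1% and 15.9% had such a p in these 5 comparisons, in the same order. DESeq2 passed Atxn3 at 2 months and Atxn1l for the age in WT/WT mice, and none of the 10 in the other comparisons. By edgeR, the share of all genes that passed was 12.5% for the genotype at 12 months (3.09% with the limit on fold change), 11.5% for the age in WT/WT mice (2.58%), 7.26% for the age in 304Q/304Q mice (2.28%) and 1.95% for the interaction (0.938%). The median log2 fold change by genotype of the 9 genes other than Atxn3 was -0.0010 at 2 months and 0.12 at 12 months, beside -0.0020 and -0.0040 over all genes tested.

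**Figure D3:**
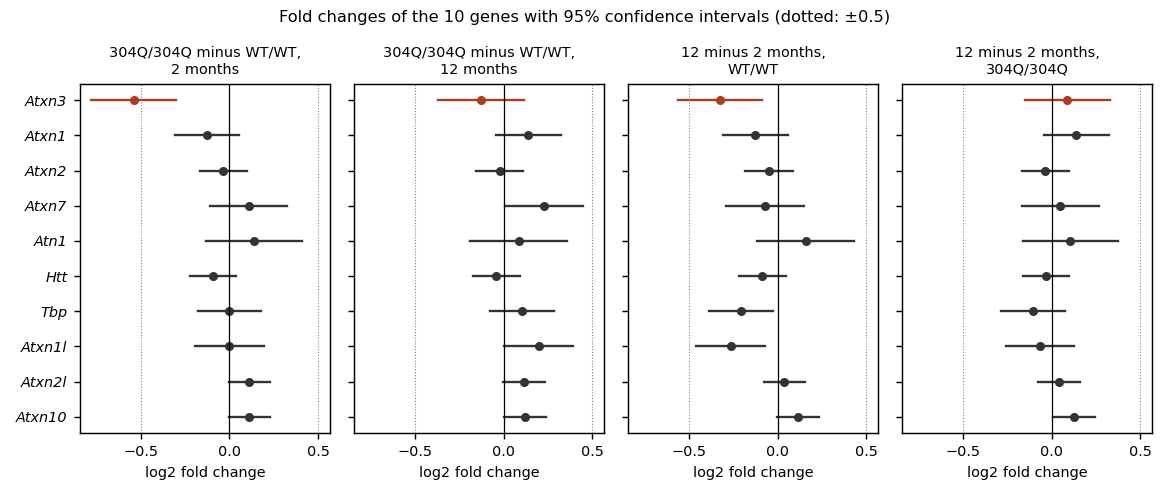
Log2 fold changes of the 10 genes (points) with 95% confidence intervals (lines) from edgeR, for the genotype at each age and the age in each genotype, with dotted lines at ±0.5. Atxn3 at 2 months, at -0.54, is the one point beyond a dotted line, and the other 9 genes lie between -0.26 and 0.23 in all 4 comparisons.

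Atxn1, the repressor that binds Capicua, averaged 722.3 normalized counts in young WT/WT mice and 663 in young 304Q/304Q mice, and at 12 months the order was the opposite, 662.8 (WT/WT) against 729.9 (304Q/304Q). Its log2 fold changes by genotype were -0.12 and 0.14, with an interaction of 0.26 (95% confidence interval 0.0077 to 0.52, unadjusted p = 0.044, adjusted p = 0.304 by edgeR). Its paralog Atxn1l, which also binds Capicua, had the same mean in both genotypes at 2 months (896.4 in WT/WT, 895.6 in 304Q/304Q). At 12 months Atxn1l held 868.7, 765.1, 712, 767.3 and 619.5 normalized counts in WT/WT mice. In the 304Q/304Q mice of that age it held 905.7, 784.2, 718.9, 834 and 1032. The groups overlapped, with replicates 1 and 5 of the 304Q/304Q mice above all WT/WT mice. The difference was 0.20 (95% confidence interval 0.0021 to 0.39, adjusted p = 0.178 by edgeR), and it reached 0.27 with surrogate variables (adjusted p = 0.0465).

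In WT/WT mice Atxn1l was lower at 12 than at 2 months by 0.26 on the log2 scale, with adjusted p = 0.0692 by edgeR and 0.0482 by DESeq2. This change kept its side of the edgeR threshold unless replicate 1 of the 12-month WT/WT mice (-0.32, adjusted p = 0.0183) or replicate 5 of the 12-month 304Q/304Q mice (-0.26, adjusted p = 0.0492) was left out. Tbp, which binds the TATA box of promoters, had a log2 fold change with age of -0.21 in WT/WT mice (95% confidence interval -0.39 to -0.026, adjusted p = 0.124 by edgeR). Its values were 653.7, 563.5, 677.1, 513.2 and 546.2 in the young WT/WT mice. At 12 months they were 568, 492.6, 505.6, 548.6 and 441.9, and the groups overlapped. By genotype Tbp differed by 0.10 at 12 months, with an interval from -0.079 to 0.28.

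Atn1, the corepressor gene of dentatorubral-pallidoluysian atrophy, ranged from 223.1 to 401.7 normalized counts in young WT/WT mice, the widest relative spread among the 10 genes in that group. Its fold changes by genotype were 0.14 at 2 months (95% confidence interval -0.13 to 0.41) and 0.084 at 12 months (-0.19 to 0.36). With a GC content of 62.0%, it lies at the opposite end from Atxn3, above 98.3% of the genes tested. The level of Atn1 is uncertain, because 84.2% of its exon bases are shared with another gene model on the same strand, Gm45234, which was given between 0 and 7 counts per library. Atxn7, part of the deubiquitinating module of SAGA, stood at 453 (WT/WT) and 530.1 (304Q/304Q) normalized counts at 12 months, a log2 fold change of 0.23 (95% confidence interval 0.0095 to 0.45, adjusted p = 0.164 by edgeR). Replicate 5 of the 304Q/304Q mice had the highest value, 625.3, and the groups overlapped.

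Among the RNA-binding proteins, Atxn2, a regulator of translation and partner of the polyA-binding protein, gave one of the closest pairs of groups, with means of 2111 (WT/WT) and 2060 (304Q/304Q) normalized counts at 2 months and of 2044 and 2012 at 12 months. Its 95% confidence intervals by genotype ran from -0.17 to 0.10 and from -0.16 to 0.11, so that in this fit differences beyond 0.17 in size lie outside both. Under the 10 other settings its fold change at 12 months lay between -0.143 and -0.014. Its paralog Atxn2l averaged 3065 and 3313 at 2 months and 3148 and 3410 at 12 months in WT/WT and 304Q/304Q mice, higher by 0.11 and 0.12 on the log2 scale, with adjusted p = 0.883 and 0.185 by edgeR. Htt was 0.093 lower at 2 months and 0.041 lower at 12 months in 304Q/304Q mice, and its intervals reached down to -0.22 and -0.17.

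Atxn10, whose protein supports the survival of neurons and which carries no coding repeat, had counts near those of Atxn2l. In the young WT/WT mice it held 2593, 2745, 2754, 3026 and 3077 normalized counts. The 304Q/304Q mice of that age held 3076, 3098, 3087, 3050 and 3041, 2 of them above every WT/WT mouse and all above the median one. At 12 months the WT/WT mice held 2742, 2930, 3446, 3186 and 3093. The 304Q/304Q mice of 12 months held 3379, 3126, 3508, 3267 and 3459. By genotype the log2 fold changes were 0.11 at 2 months and 0.12 at 12 months (adjusted p = 0.883 and 0.172 by edgeR). At 12 months the fold change was 0.17 with the GC and length trends removed (adjusted p = 0.00779). With age it was higher by 0.12 in each genotype. All 304Q/304Q mice of 12 months lay above all those of 2 months, as 7.8% of the genes tested did in one direction or the other, and edgeR gave an adjusted p of 0.223. No gene of the 10 had groups free of overlap between the genotypes, where 1.05% of all genes tested had them at 2 months and 8.94% at 12 months.

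Set against each of the other 9 genes in the same library, Atxn3 of young 304Q/304Q mice stood below the WT/WT mean in all 9 ratios, by 0.41 (Atxn1) to 0.69 (Atn1) on the log2 scale. These ratios share the Atxn3 values and are not independent. The mice of the genotypes were fully separated in 3 of the 9 ratios, those to Atxn1l, Atxn2l and Atxn7. Over all other genes tested the same held for 22.1%, and nothing particular to these 9 is read from it. At 12 months the differences ran from -0.36 to -0.082, and no ratio separated the genotypes (8.42% of all genes). With age in WT/WT mice they ran from -0.48 to -0.040, with 1 ratio separated (15.2% of all genes). With age in 304Q/304Q mice they ran from -0.042 to 0.20, with none separated (2.55%).

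**Figure D4:**
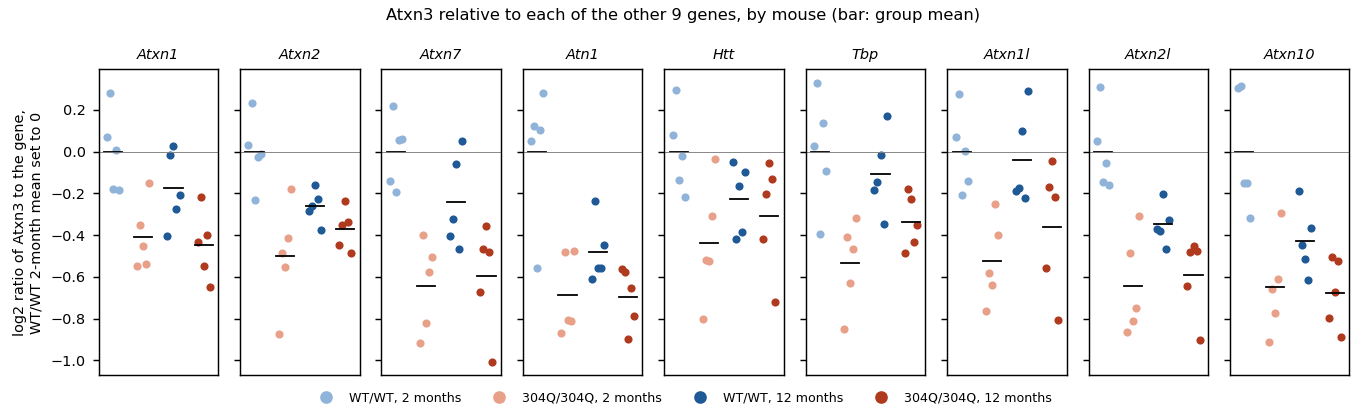
Log2 ratio of Atxn3 to each of the other 9 genes in each mouse (vertical axis, log2 CPM differences set to 0 at the mean of young WT/WT mice), with bars at the group means. The young 304Q/304Q mice lie 0.41 to 0.69 below the young WT/WT mice on average in every panel.

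Per length, the genes fell over a wide range of levels. In RPKM, which scales reads to exon length and library size, averaged here over the 20 libraries, Atxn10 stood at 112.0 and Atxn2l at 47.6, above 97.8% and 93.1% of the genes tested. Atxn2 was at 9.23, Htt at 7.97, Atxn1l at 7.93, Atn1 at 5.34, Atxn7 at 4.35 and Atxn1 at 3.51 RPKM. Atxn3 and Tbp stood lowest at 2.91 and 2.90 RPKM, above 22.6% and 22.4% of the genes. The ranges of Atxn10, Atxn2l and Atxn2 did not overlap in any of the 4 groups. Below Atxn2, neighbours in this order overlapped in most groups, and Atxn3 and Tbp overlapped in all 4. In young WT/WT mice Atxn3 averaged 3.62 RPKM, next to Atxn1 at 3.65 and above Tbp at 3.06, whereas in young 304Q/304Q mice it was the lowest of the 10 at 2.49 RPKM. The RPKM of the 304Q/304Q mice use the exon length of the reference, without the inserted repeat. Tbp shares 19.0% of its exon bases with Pdcd2 on the opposite strand, and whether the counting used the strand is not given in the sources used here.

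**Figure D5:**
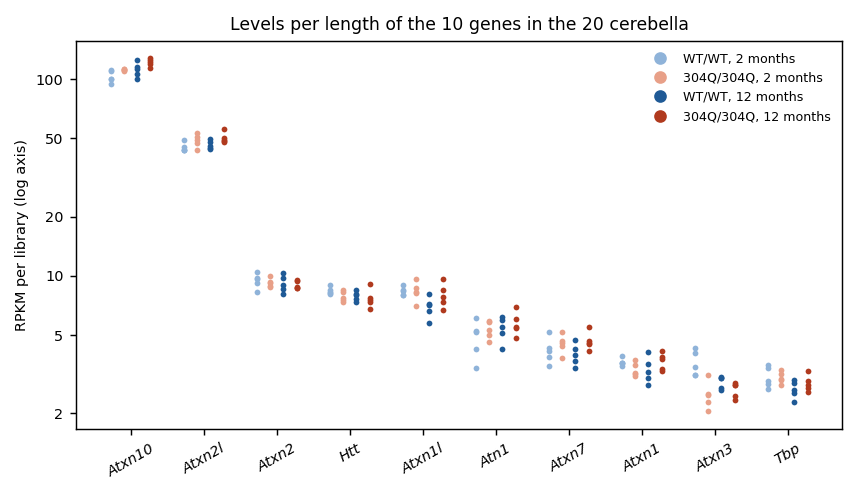
RPKM (log axis) of the 10 genes in each library, in order of their mean, with colours for genotype and age. Atxn10 and Atxn2l stand apart at means of 112.0 and 47.6, and Atxn3 and Tbp share the lowest place near 2.9.

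Other genes of the same pathways were read from fixed lists. Cacna1a, a further polyglutamine disease gene, encodes a calcium channel subunit of Purkinje cells. At 2 months it did not pass by edgeR (log2 fold change -0.046, adjusted p = 0.95). At 12 months Cacna1a was lower in 304Q/304Q mice, at 7509 ± 587 normalized counts against 8693 ± 548 (log2 fold change -0.21, adjusted p = 0.00759 by edgeR). Of 8 further paralogs, none passed at 2 months by edgeR or DESeq2 and none had an unadjusted p under 0.05. At 12 months 1 of the 8 passed by edgeR and 2 by DESeq2, beside 12.5% of all genes tested by edgeR. The 1 passed by edgeR was Josd2, a deubiquitinase of the Josephin family, lower by 0.22 (adjusted p = 0.0426). With age in WT/WT mice 1 of the 8 passed by edgeR, beside 11.5% of all genes tested. It was Atxn7l3b, a small paralog of a SAGA subunit, lower by 0.34 (adjusted p = 0.00551). In 304Q/304Q mice 1 of the 8 passed with age by edgeR, beside 7.26% of all genes tested. It was Atxn7l3, the SAGA subunit itself, higher by 0.22 (adjusted p = 0.0118).

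Of 12 partners of the group's proteins, none passed at 2 months by edgeR or DESeq2, with fold changes between -0.10 and 0.076 and no unadjusted p under 0.05. At 12 months 2 of the 12 passed by edgeR, beside 12.5% of all genes tested. Usp22, the ubiquitin protease of SAGA, was higher in 304Q/304Q mice by 0.25 (adjusted p = 0.00173 by edgeR), and Eny2, a small subunit of that complex, was higher by 0.52 (adjusted p = 0.00438). Atxn7l3, of the same complex and among the paralogs above, did not pass by genotype at 12 months (0.11, adjusted p = 0.199 by edgeR). Eny2 overlaps Nudcd1 on the opposite strand by 4.6% of its exon bases. The 12-month fold changes of Usp22, Eny2, Cacna1a and Josd2 come from the fit without removal of the GC and length trends. At that age the GC trend was higher in the WT/WT libraries, replicate 1 excepted, than in all 304Q/304Q libraries. The part of these trends in the 12-month fold changes of these genes was not tested. Hap1, the huntingtin-associated protein, was higher with age in both genotypes (by 0.37 in WT/WT mice and by 0.34 in the 304Q/304Q line, adjusted p = 0.0031 and 0.00481 by edgeR), with -0.033 between the genotypes at 12 months. Cic, which encodes Capicua, the partner of ataxin-1, differed by -0.049 and -0.050 between the genotypes.

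The 5 tested genes nearest to Atxn3 on each side of chromosome 12 showed no like difference at 2 months. None of these 10 neighbours passed by edgeR or DESeq2 and none had an unadjusted p under 0.05, and their fold changes lay between -0.19 and 0.15. The closest neighbours, Trip11 at 5634 bp and Ndufb1-ps at 9844 bp, stood at -0.11 and 0.064.

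Among all genes tested, those whose log2 CPM followed Atxn3 most closely over the 20 libraries were Kcnip4 (Pearson r = 0.756), Xk (0.736), Pik3r3 (0.731), Chn2 (0.727) and Gm45902 (0.72). This is a description over libraries that share groups and GC trends. Their GC contents were 40.1%, 42.5%, 44.3%, 45.2% and 48.2% in that order. Within the group of 10, the correlation with Atxn3 was 0.384 for Atxn2, 0.381 for Atxn1, 0.134 for Tbp and 0.113 for Htt, and it was lowest for Atxn2l (-0.364) and Atxn10 (-0.572).

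Because bulk RNA mixes cells, fewer cells of a type and less RNA per cell cannot be told apart, and the level of Atxn3 is an average over all cells of the cerebellum. Marker genes of its cell types were present throughout, and no marker list summed to 0 in any library, although Aif1, Itgam, Folr1 and Aqp1 were under the count limit and not tested. At 2 months, the summed normalized counts of 10 oligodendrocyte markers lay between 70590 and 79900 in 304Q/304Q and between 81580 and 93760 in WT/WT mice. Of these 10 markers 9 were lower in 304Q/304Q mice, with a median log2 fold change of -0.21, 1 passed by edgeR and 2 by DESeq2, and 6 had an unadjusted p under 0.05. The sums of 10 Purkinje cell markers overlapped at that age (99690 to 108400 against 105500 to 118500), and none of the 10 passed by edgeR or DESeq2, with 1 at an unadjusted p under 0.05. At 12 months all 10 Purkinje cell markers were lower in 304Q/304Q mice, and 8 of them passed by edgeR (sums 85100 to 91540 against 104100 to 113200). All 10 oligodendrocyte markers were lower too, and 5 passed (49390 to 68210 against 75090 to 85540). The 5 blood markers were all lower, and 4 passed (1367 to 1589 against 1649 to 3503). The sums of 3 choroid plexus markers differed between single mice, from 145.1 to 245.5 in young WT/WT mice and from 166.6 to 24110 in young 304Q/304Q mice, and from 277.8 to 29620 and 175.7 to 21090 at 12 months. At 2 months none of these 3 passed by edgeR, where 2 had an unadjusted p under 0.05, and DESeq2 passed 1. Of the granule cell, astrocyte and Bergmann glia, microglia and endothelial lists, no gene passed at 2 months by either tool (2 granule cell markers had an unadjusted p under 0.05), and at 12 months 0 of 10 (also 0 by DESeq2, with 1 at an unadjusted p under 0.05), 3 of 10, 1 of 8 and 1 of 8 passed by edgeR. Of all genes tested, 0.0494% passed by edgeR for the genotype at 2 months and 12.5% at 12 months. An unadjusted p under 0.05 by edgeR was held by 5.55% and 27.3% of them at these ages. The microglia and endothelial counts at 12 months lie near the share of all genes, and nothing particular to these cells is read from them. The part of the marker genes in the differences of Atxn3, Cacna1a, Usp22 and Eny2 was not tested.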

How the data were processed

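Cerebellar polyA RNA was sequenced with a stranded kit and paired-end reads. The authors aligned the reads with STAR (version 2.4.5b in the submitters' processing notes) to GRCm38, used Rsubread to count reads per gene, and deposited the raw whole-number counts of 29200 genes. Whether strand was used in counting is not given in the sources used here. Here, genes averaging 50 or more counts (12153, holding 99.3% of counts) were scaled by TMM and fitted with edgeR 4.0.16's quasi-likelihood model in R 4.3.3, with 1 coefficient per group. P-values were adjusted over all tested genes (Benjamini-Hochberg). A gene passed at an adjusted p of at most 0.05, and was called where its log2 fold change also reached 0.5 in size. The spread between mice (coefficient of variation 0.113) and, for Atxn3, the counting limit the precision. Log2 CPM used a prior count of 2. Symbols and positions came from GENCODE M21 (29150 IDs matched). No pair of replicates agreed within sampling noise (the lowest chi-square was 4.43 per degree of freedom).

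Alternatives were DESeq2 1.42.0, 3 surrogate variables from sva 3.50.0, other scaling, filters and priors, removal of GC and length trends, a replicate block, and each library left out. In simulated counts for the genotype at 12 months (12153 genes), edgeR recovered 193 of 200 genes changed by a log2 fold of 1, with 3 others, and DESeq2 194 with 5 others. That change is larger than any of the 10 genes showed, so the recovery of differences of their size was not tested. The 10 genes, the lists of paralogs, partners and markers, and the rule for naming genes (all members, list genes passing in a genotype contrast, otherwise the list's largest, and the 5 most like Atxn3) were chosen with earlier results of these data known. Atxn7l3b, Atxn7l3, Hap1, Cic, Trip11 and Ndufb1-ps were named after their values were seen. Some genes of the lists are not reported here.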

Additional observations from a re-analysis of the deposited data

Results flagged for a closer look

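Over the 40 groups formed by the 10 genes and the 4 sets of 5 mice, 1 had a mouse far from the rest. Atxn2l stood at 3342 normalized counts in replicate 1 of the 2-month WT/WT mice, with the other 4 mice between 2969 and 3058. The gap to the nearest of them was 0.76 of the group's range, above Dixon's critical value of 0.71 for 5 samples. Chance places about 1 in 20 groups beyond that value. That library also had the lowest GC trend of the 20, -0.46, so that its genes of high GC content stood low beside those of low GC content. Atxn2l has a GC content of 57.2%, above 87.4% of the genes tested, and its value in that library was high. The part of the trend in the Atxn2l value was not tested.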

How the results depend on the processing

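Of 1490 fold changes of the 10 genes under the alternatives, 1473 kept their side of the threshold and the other 17 passed it in the same direction. At 2 months the genotype difference of Atxn3 passed with DESeq2 (-0.539), DESeq2 with surrogate variables (-0.510), edgeR with surrogate variables (-0.511) and the GC and length trends removed (-0.508), and each of these 4 settings called 1 of the 10 genes in place of 0. With single libraries left out it lay between -0.633 and -0.468, and the number called between 0 and 1, the call coming without replicate 5 of the 304Q/304Q mice. With age in WT/WT mice Atxn3 lay between -0.373 and -0.251, and passed without replicate 5 of either genotype at 2 months. Atxn10 passed for the genotype at 12 months and the age in 304Q/304Q mice with DESeq2 and surrogate variables and with the trends removed. The cause was not tested. With the replicate block, Atxn3 stood at -0.539 (adjusted p = 0.178) at 2 months and -0.320 with age in WT/WT mice, and no gene of the 10 was called. Same-numbered mice did not deviate together throughout (correlations -0.323 to 0.551), and the numbers were not taken to pair them. The highest value, 0.551, was that of replicate 1 of the WT/WT mice between the 2 ages. Over all genes, calls for the genotype at 2 months were 1 in the reported fit and 8 with DESeq2, 10 with its surrogate variables, 9 with those in edgeR and 3 with the trends removed or without the filter. Calls with age in WT/WT mice were 314 and then 203, 185 and 202 with the surrogate variables (DESeq2, edgeR) and the trends removed, 595 without replicate 1 of the 12-month and 205 without replicate 1 of the 2-month WT/WT mice. The interaction gave 114 calls, 173 with DESeq2, 265 without WT/WT replicate 1 of 12 months, 176 without 304Q/304Q replicate 5 of 2 months and 75 without WT/WT replicate 3 of 12 months. Atxn3's 168 to 317 reads per library limit how small a difference can be seen.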
